A study of Mus musculus with 18 samples.

Results

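Matricellular proteins are secreted proteins that sit in the extracellular matrix without building its fibres and instead bind receptors, growth factors and other matrix proteins. The 10 genes described here were chosen by Ensembl ID from the 51826 features that each count file lists: the thrombospondins Thbs1 and Thbs2, the FAS1-domain proteins Postn (periostin) and Tgfbi, the tenascin Tnc, Sparc, Spp1 (osteopontin), the CCN proteins Ccn1 (Cyr61) and Ccn2 (Ctgf), and Fn1 (fibronectin), a fibre-forming glycoprotein to which several of the others bind. Each ID matched 1 row, and all 10 passed the filter on low counts, among 13701 genes that did. Postn had been singled out by WT day 10 against WT day 0, and Thbs1 by Quaking KO against WT at day 0. All members are therefore described without a test in those comparisons, and both genes also in any other comparison that uses the same libraries.

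The samples came from E14, a line of mouse embryonic stem cells, in 3 versions: a Sam68 knockout (Sam68 KO), a Quaking knockout (Quaking KO) and unedited wild-type cells (WT). Sam68 and Quaking both belong to the STAR family, whose members bind RNA. Each line was profiled on day 10 of differentiation as embryoid bodies, which are cell aggregates that form early embryonic cell types, and on day 0 as stem cells, with 3 libraries in each of the 6 groups, labelled as biological triplicates. All groups received cycloheximide (100 µg/mL for 15 minutes) before lysis, and ribosome-protected fragments of 28 to 32 nt were sequenced. Whether a knockout line was 1 clone is not given in the sources used here.

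Values are footprint CPM, that is, counts divided by library sizes from edgeR's TMM method, with the SD over 3 libraries. They are not divided by gene length, so levels are compared between groups and not between genes. Total counts ran from 988210 to 10646768 per library. In 3 libraries of day 10, Sam68 KO replicates 2 and 3 and WT replicate 3, the 10 largest features took 60.2%, 64.4% and 70.4% of the counts, against at most 30.2% in the other libraries of that day. In those 3 libraries a floor of 3 counts stood at 1.43, 2.78 and 7.05 CPM. The libraries formed 3 sequencing pools: pool 1 for the day 0 libraries of Quaking KO and WT, pool 2 for WT of day 10 with Sam68 KO of day 0, and pool 3 for both knockouts of day 10. Only Quaking KO against WT at day 0 and Sam68 KO against Quaking KO at day 10 lie within a pool, and in all other comparisons pool and group cannot be told apart. The files give no gene names, so neither the counts of the knocked-out genes nor markers of the stem cells or of the cell types in embryoid bodies were examined. In whole embryoid bodies, fewer cells of a type and less RNA per cell cannot be told apart, nor do footprints alone separate the amount of an mRNA from its translation.

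Thrombospondins bind integrins and CD47, and thrombospondin-1 can release TGF-beta from its latent form. Thbs1 (ENSMUSG00000040152) lies at chromosome 2, 118111876 to 118127133, and Thbs2 (ENSMUSG00000023885) at chromosome 17, 14665500 to 14694262 (positions from RefSeq's GRCm38.p6, the build the submitters' notes name). Periostin and the Tgfbi protein are related cell-adhesion proteins, and TGF-beta raises the expression of both in many cell types. Postn (ENSMUSG00000027750) is at chromosome 3, 54359267 to 54391041, and Tgfbi (ENSMUSG00000035493) at chromosome 13, 56609586 to 56639359. Tenascin-C (Tnc, ENSMUSG00000028364, chromosome 4, 63959785 to 64047015) is a large glycoprotein made in embryonic mesenchyme and healing tissue. Sparc (ENSMUSG00000018593, chromosome 11, 55394159 to 55420080) binds collagen and calcium. Osteopontin (Spp1, ENSMUSG00000029304, chromosome 5, 104435111 to 104441053) is an acidic phosphoprotein that binds integrins. Ccn1 (ENSMUSG00000028195, chromosome 3, 145646971 to 145649985) and Ccn2 (ENSMUSG00000019997, chromosome 10, 24595442 to 24598683) encode short secreted proteins and are widely used target genes of the YAP and TEAD transcription regulators. Fn1 (ENSMUSG00000026193) is at chromosome 1, 71585473 to 71653280. All 10 are annotated as protein-coding.

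Promoter sequences from RefSeq (GRCm38.p6) were available for 7 of the 10 members; Thbs1, Ccn2 and Fn1 had no entry. They are shown because 3 of the printed genes, Postn, Sparc and Tnc, averaged lower in Quaking KO than in the other lines at day 10, while Thbs2 averaged higher, and because Ccn1 is the close relative of Ccn2. Each run is the 250 bases before an annotated start, 5′ to 3′ on the gene's own strand, and capitals mark matches to 2 of the motifs searched.
Postn (chr3:54360857-54361106, plus strand): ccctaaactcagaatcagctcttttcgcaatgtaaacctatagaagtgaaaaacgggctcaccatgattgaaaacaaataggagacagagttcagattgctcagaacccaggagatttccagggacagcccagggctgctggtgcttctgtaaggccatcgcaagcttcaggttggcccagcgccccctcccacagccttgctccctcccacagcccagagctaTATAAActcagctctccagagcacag
Sparc (chr11:55420081-55420330, minus strand): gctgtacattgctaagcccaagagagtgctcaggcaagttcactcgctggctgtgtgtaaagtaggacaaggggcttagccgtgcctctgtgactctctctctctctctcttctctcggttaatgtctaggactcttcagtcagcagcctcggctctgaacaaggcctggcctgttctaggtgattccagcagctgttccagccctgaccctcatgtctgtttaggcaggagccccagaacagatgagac
Tnc (chr4:64047016-64047265, minus strand): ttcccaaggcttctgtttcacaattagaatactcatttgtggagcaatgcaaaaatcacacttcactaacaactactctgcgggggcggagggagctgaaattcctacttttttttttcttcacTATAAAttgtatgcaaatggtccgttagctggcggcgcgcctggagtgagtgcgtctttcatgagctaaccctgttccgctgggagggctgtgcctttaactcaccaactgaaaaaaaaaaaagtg
Thbs2 (chr17:14694263-14694512, minus strand): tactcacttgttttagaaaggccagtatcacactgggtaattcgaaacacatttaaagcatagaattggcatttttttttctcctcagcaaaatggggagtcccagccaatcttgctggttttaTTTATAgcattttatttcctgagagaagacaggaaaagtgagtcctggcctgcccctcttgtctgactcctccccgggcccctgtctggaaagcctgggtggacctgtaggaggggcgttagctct
Ccn1 (chr3:145649986-145650235, minus strand): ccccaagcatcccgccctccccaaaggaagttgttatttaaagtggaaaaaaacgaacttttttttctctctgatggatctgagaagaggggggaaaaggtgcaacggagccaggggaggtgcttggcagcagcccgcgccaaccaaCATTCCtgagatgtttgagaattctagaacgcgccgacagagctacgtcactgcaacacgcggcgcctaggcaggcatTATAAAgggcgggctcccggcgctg
The motifs searched on both strands were GGAATG for TEAD, TGANTCA for AP-1, TATAAA for a TATA box and SRF's CArG box. TATAAA lay 26 to 21 bases before the second annotated start of Postn, which is inside the gene's span, and 25 to 20 bases before that of Ccn1. In Tnc and Thbs2 the match lay 126 to 121 bases before the start printed, on the opposite strand in Thbs2. Of the members' 10 windows, 6 held TATAAA, where 12.4% of 32851 windows of the same length did. These were the 4 just named, the second window of Tnc, which overlaps the first and shares its match, and the first of 2 for Spp1. The first window of Postn, not printed, and the second of Spp1 held none of the motifs, nor did those of Sparc and Tgfbi. The TEAD motif occurred in 1 of the 10 windows, that of Ccn1, reading CATTCC on the strand shown at 103 to 98 bases before the start, and 12.6% of all windows held it. The AP-1 motif and the CArG box were in none of the members' windows, against 6.75% and 1.47% of all windows. A match is a run of letters in this window and not a measured binding site.

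At day 10 the lines differed most where Quaking KO was involved. Both thrombospondin genes were higher in Quaking KO embryoid bodies, while Ccn2, Sparc and Tnc, together with Fn1, were lower and Postn measured lower. Of the 9 members tested between Quaking KO and WT, 2 were higher and 4 lower (quasi-likelihood test of edgeR, p adjusted over all genes by Benjamini-Hochberg, threshold 0.05), where 11.1% and 12.8% of all genes tested were called in those directions and 23.9% in either. The median log2 fold change of the 9 tested members was -0.05, with a range of -2.38 to 1.93, and that of all genes was -0.03. Within pool 3, Sam68 KO against Quaking KO gave 4 of 10 members higher and 4 lower, where 13.0% and 10.6% of all genes were called, 23.7% in all. Here the members' median was 0.23 and that of all genes 0.03. These 2 comparisons use the same Quaking KO libraries, so the second is not a repeat of the first. Between Sam68 KO and WT, 1 of 9 members was called, Spp1, which was lower, where 0.102% of all genes were called lower and 0.0730% higher. All 9 tested members had a fitted change below 0 there, with a median of -0.19 beside -0.01 for all genes. The share of all genes below 0 was not counted. The changes of Ccn1 (-0.01, SE 0.54) and Tnc (-0.04, SE 0.25) were near 0, and lay above 0 with replicate number in the model. Without WT replicate 1, those of Ccn1, Tnc and Fn1 lay above 0. Ccn1 and Tnc also lay above 0 without Sam68 KO replicate 3, and Tnc without WT replicate 2. Ccn1 did so too without WT replicate 3, without the 3 dominated libraries and with all libraries thinned to the smallest total.

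**Figure D1:**
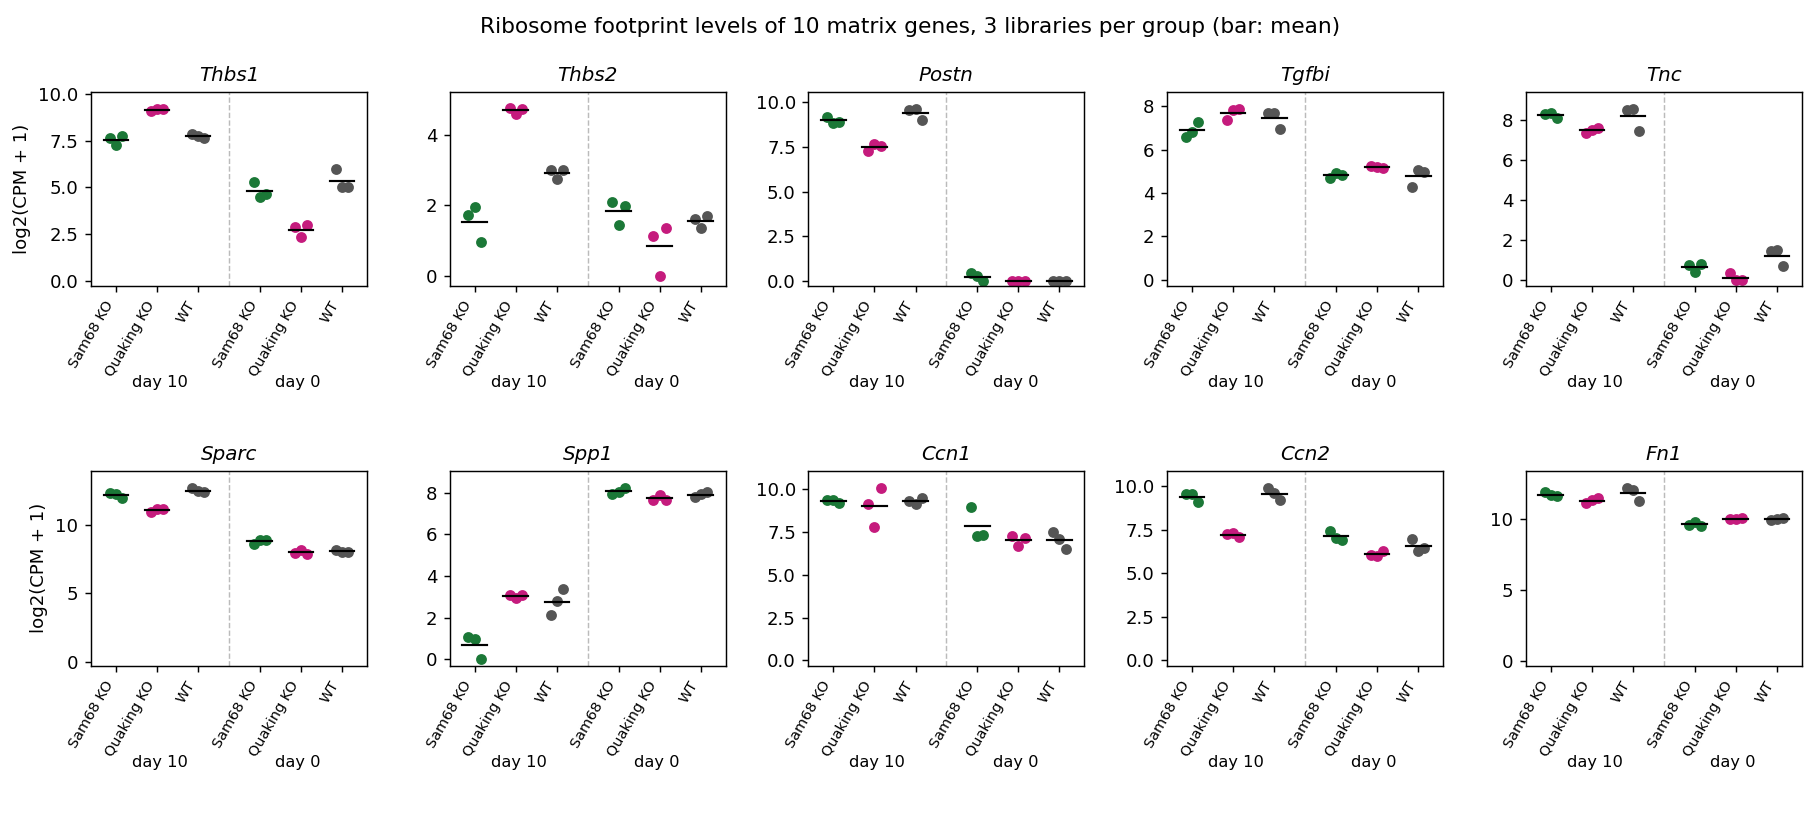
Footprint level of each gene, as log2(CPM + 1), in every library, with day 10 left of day 0 and, within a day, Sam68 KO, Quaking KO and WT; points are libraries and bars are means of 3. At day 10 Thbs1 and Thbs2 stand highest in Quaking KO, while Postn, Sparc and Ccn2 stand lowest there, and Spp1 is the gene whose day 0 level lies above its day 10 level in all 3 lines.

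Thbs1 at day 10 measured 203, 158 and 214 CPM in Sam68 KO libraries, 547, 586 and 601 CPM in Quaking KO libraries and 233, 213 and 202 CPM in WT libraries. All Quaking KO libraries lay above all others, and Sam68 KO and WT overlapped. Thbs1 averaged 578 ± 27.8 CPM in Quaking KO and 216 ± 15.5 CPM in WT, a log2 fold change of 1.41 (SE 0.24, edgeR adjusted p = 0.000258). Sam68 KO, at 192 ± 29.8 CPM, was lower than Quaking KO by a log2 fold change of -1.60 (SE 0.24, edgeR adjusted p = 7.10e-05). Thbs2 was a low-count gene with the same order of lines. It had 18, 6 and 1 counts in Sam68 KO, 28, 89 and 92 counts in Quaking KO and 47, 26 and 3 counts in WT. That corresponded to 2.02 ± 0.993, 24.9 ± 1.68 and 6.62 ± 0.743 CPM in the same order of lines. Quaking KO exceeded WT by a log2 fold change of 1.93 (SE 0.38, edgeR adjusted p = 0.000519), and Sam68 KO stood at -3.48 against Quaking KO (SE 0.43, edgeR adjusted p = 1.22e-06). Thbs2 was lower in all 3 Sam68 KO libraries than in any WT library, but this did not pass the test (log2 fold change -1.55 with an SE of 0.45, edgeR adjusted p = 0.277). Its count in WT replicate 3 was at the floor of 3 counts.

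Ccn2 had the largest drop among the members between Quaking KO and WT. Its levels were 760.0, 743 and 538 CPM in Sam68 KO, 152, 161 and 135 CPM in Quaking KO, and 947, 770.1 and 604 CPM in WT. The highest Quaking KO library was far below the lowest of the other lines. Quaking KO averaged 149 ± 13.0 CPM and WT 774 ± 172 CPM, a log2 fold change of -2.38 (SE 0.20, edgeR adjusted p = 1.32e-08). Sam68 KO, at 680.5 ± 124 CPM, exceeded Quaking KO by 2.19 on the log2 scale (SE 0.20, edgeR adjusted p = 3.28e-08). Ccn1, its close relative, gave no such difference, and its Quaking KO libraries spread widely. Ccn1 measured 663, 666 and 582 CPM in Sam68 KO, 569, 222 and 1076 CPM in Quaking KO, and 653, 569 and 712 CPM in WT. The Quaking KO values enclosed those of both other lines. The log2 fold change of Quaking KO over WT was -0.05 with an SE of 0.54 (edgeR adjusted p = 0.971), so a difference of the size of that SE was not resolved by these libraries.

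Sparc measured 5254, 5041 and 4136 CPM in Sam68 KO, 1966, 2271 and 2366 CPM in Quaking KO, and 6601, 5766 and 5359 CPM in WT at day 10. Quaking KO lay apart below both other lines. The mean was 2201 ± 209 CPM in Quaking KO and 5909 ± 633 CPM in WT (log2 fold change -1.42 with an SE of 0.13, edgeR adjusted p = 1.59e-08). Sam68 KO exceeded Quaking KO by 1.13 on the log2 scale (SE 0.13, edgeR adjusted p = 4.37e-07). Postn measured 577, 465 and 484 CPM in Sam68 KO, 156, 199 and 186 CPM in Quaking KO, and 771, 796 and 519 CPM in WT. Sam68 KO and WT overlapped through WT replicate 3 alone, a library dominated by few features, and all Quaking KO libraries were lower. Within pool 3 Postn was higher in Sam68 KO, at 509 ± 59.97 CPM, than in Quaking KO, at 180.4 ± 22.3 CPM (log2 fold change 1.49 with an SE of 0.19, edgeR adjusted p = 1.45e-05). Against WT, at 696 ± 153 CPM, the log2 fold changes were -0.46 (SE 0.19) for Sam68 KO and -1.95 (SE 0.19) for Quaking KO, given without a test because the WT day 10 libraries singled Postn out.

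Tgfbi, the relative of Postn, did not follow it. At day 10 it measured 95.1, 111 and 151 CPM in Sam68 KO, 162, 226 and 235 CPM in Quaking KO, and 203, 206 and 122 CPM in WT. WT overlapped both knockouts, which did not overlap each other. Its overlap with Sam68 KO came from WT replicate 3 alone, one of the 3 libraries dominated by few features. Tgfbi was lower in Sam68 KO, at 119 ± 28.8 CPM, than in Quaking KO, at 208 ± 39.8 CPM (log2 fold change -0.84 with an SE of 0.21, edgeR adjusted p = 0.00478). Neither knockout passed against WT, with log2 fold changes of -0.63 for Sam68 KO (SE 0.21, edgeR adjusted p = 0.383) and 0.20 for Quaking KO (SE 0.20, edgeR adjusted p = 0.527).

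Tnc and Fn1 were lower in Quaking KO than in WT by smaller amounts, and both calls depended on single libraries. Tnc measured 307, 318 and 273 CPM in Sam68 KO, 159.5, 179 and 188 CPM in Quaking KO, and 359.7, 372 and 174 CPM in WT. Its lowest WT value was replicate 3, one of the 3 libraries dominated by few features, and it lay within the Quaking KO range. The log2 fold change of Quaking KO over WT was -0.81 (SE 0.25, edgeR adjusted p = 0.0245), and the call was lost without Quaking KO replicate 1, 2 or 3 (adjusted p = 0.0866, 0.0642 and 0.0595) and without WT replicate 1 or 2 (0.1004 and 0.1017). Against Quaking KO, Tnc was higher in Sam68 KO by 0.77 on the log2 scale (SE 0.25, edgeR adjusted p = 0.0323). That call was lost without Quaking KO replicate 1, 2 or 3 (0.106, 0.0811 and 0.0725) or Sam68 KO replicate 1 or 2 (0.0920 and 0.101), and with RLE scaling (0.0607), upper quartile scaling (0.0506) or thinning (0.0532).

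Fn1 measured 3707, 3227 and 3008 CPM in Sam68 KO, 2148, 2521 and 2734 CPM in Quaking KO, and 4465, 4118 and 2359 CPM in WT. WT replicate 3 again lay within the Quaking KO range, below the other 2 WT libraries. The log2 fold change of Quaking KO over WT was -0.56 (SE 0.16, edgeR adjusted p = 0.0127). The call was missed on leaving out Quaking KO replicate 1 (0.0750) or WT replicate 1 or 2 (0.128 and 0.0749), in the fit of the compared groups alone (0.102) or with no filter on low counts (0.0518). Sam68 KO against Quaking KO did not pass (log2 fold change 0.43 with an SE of 0.16, edgeR adjusted p = 0.0596), although the lowest Sam68 KO library lay above the highest of Quaking KO. It passed without the 3 dominated libraries (0.00392), in the fit of the compared groups alone (0.0217) and with thinning (0.0270). With those 3 libraries left out, Quaking KO against WT still called 2 members higher and 4 lower.

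Spp1 was the gene called between Sam68 KO and WT at day 10, on few counts. Sam68 KO libraries held 9, 2 and 0 counts, Quaking KO libraries 8, 26 and 27, and WT libraries 23, 27 and 4. In CPM this was 0.696 ± 0.609 in Sam68 KO, 7.23 ± 0.458 in Quaking KO and 6.28 ± 2.99 in WT, and no Sam68 KO library reached the lowest value of the other lines. The log2 fold change of Sam68 KO over WT was -2.32 (SE 0.36, edgeR adjusted p = 0.00230). It was lost without WT replicate 2 (0.0619), in the fit of the compared groups alone (0.460) and when all libraries were thinned to the smallest total (0.610). Sam68 KO was also lower than Quaking KO (log2 fold change -2.86 with an SE of 0.34, edgeR adjusted p = 8.99e-07), and this call held under all 14 alternatives run for it. Quaking KO against WT did not pass (log2 fold change 0.55 with an SE of 0.26, edgeR adjusted p = 0.137).

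**Figure D2:**
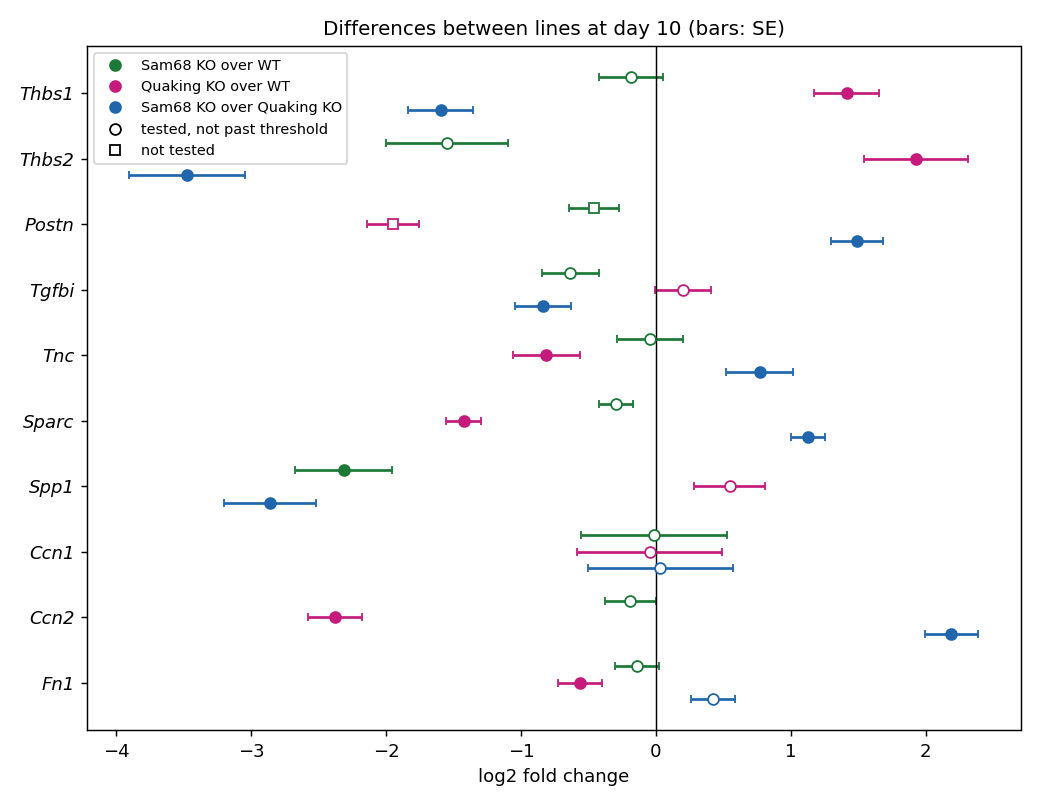
Log2 fold change with its SE for each gene at day 10, for Sam68 KO over WT, Quaking KO over WT and Sam68 KO over Quaking KO; filled points passed an adjusted p of 0.05, open circles did not, and squares were not tested. Quaking KO over WT lies at 1.41 and 1.93 for the thrombospondins and at -2.38 for Ccn2, while Sam68 KO over WT lies within 0.7 of 0 for all genes other than Thbs2 and Spp1.

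The second question was how each gene changed over the 10 days within a line. In Sam68 KO 7 of 10 members were higher at day 10 and 1, Spp1, was lower (edgeR, adjusted p below 0.05), where 34.9% of all genes were called higher and 30.5% lower, 65.3% in all. In Quaking KO 8 of 9 tested members were higher and 1, again Spp1, was lower, beside 34.7% and 29.4% of all genes, 64.1% in all. The median log2 fold change of the tested members was 2.20 in Sam68 KO and 2.56 in Quaking KO, and that of all genes 0.11 in each. In WT, described without a test, 9 members measured higher at day 10 and Spp1 lower, with a median of 2.56, Postn included, beside 0.10 for all genes. Together the 10 genes took 0.461% to 1.17% of a library's counts in Sam68 KO, 0.643% to 0.855% in Quaking KO and 0.364% to 1.46% in WT at day 10. At day 0 this was 0.231% to 0.266%, 0.189% to 0.223% and 0.216% to 0.233% in the same order of lines. The lowest day 10 shares, 0.364% and 0.461%, were in WT replicate 3 and Sam68 KO replicate 3, both dominated by few features.

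Postn and Tnc were nearly absent from stem cells. Postn had 2, 2 and 0 counts in the Sam68 KO day 0 libraries and no count in any Quaking KO or WT library of that day. At day 10 it had 6084 counts over the Sam68 KO libraries, 1604 over those of Quaking KO and 8960 over those of WT. Its level in Quaking KO at day 10 was at least 152-fold higher than a floor of 3 counts per library at day 0 (edgeR adjusted p = 1.90e-13), and in Sam68 KO the fitted log2 fold change was 11.29 (SE 0.34, edgeR adjusted p = 7.23e-15). Tnc had 4, 3 and 5 counts in Sam68 KO, 1, 0 and 0 in Quaking KO and 12, 13 and 8 in WT at day 0. Its ratio of day 10 to day 0 in Quaking KO, 1495, rests on that 1 count and has a 95% counting interval of 268 to 59105. In Sam68 KO Tnc rose by 9.05 on the log2 scale (SE 0.40, edgeR adjusted p = 1.70e-12).

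Sparc and Fn1 were already well above the floor of 3 counts in stem cells and rose further. Sparc averaged 4810.4 ± 593 CPM at day 10 and 447 ± 54.7 CPM at day 0 in Sam68 KO (log2 fold change 3.43 with an SE of 0.14, edgeR adjusted p = 6.44e-16). In Quaking KO it averaged 2201 ± 209 CPM at day 10 and 258 ± 31.4 CPM at day 0 (log2 fold change 3.09 with an SE of 0.14, edgeR adjusted p = 2.34e-15). The WT means were 5909 ± 633 and 273 ± 15.9 CPM. Fn1 rose by 2.09 on the log2 scale in Sam68 KO (SE 0.17, edgeR adjusted p = 1.51e-10) and by 1.27 in Quaking KO (SE 0.16, edgeR adjusted p = 4.03e-07), and its WT log2 fold change was 1.87. Tgfbi rose by 2.12 in Sam68 KO (SE 0.22, edgeR adjusted p = 1.60e-08) and by 2.56 in Quaking KO (SE 0.22, edgeR adjusted p = 1.23e-09), with 2.749 in WT.

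The CCN genes rose in Quaking KO, Ccn1 by 2.22 on the log2 scale (SE 0.56, edgeR adjusted p = 0.00392) and Ccn2 by 1.12 (SE 0.20, edgeR adjusted p = 3.50e-05). In Sam68 KO Ccn2 rose by 2.27 (SE 0.20, edgeR adjusted p = 1.17e-09). Ccn1 did not pass there (log2 fold change 1.23 with an SE of 0.54, edgeR adjusted p = 0.0641), with day 0 values of 506, 152 and 158 CPM. Leaving out the high library, replicate 1, gave a log2 fold change of 2.03 (edgeR adjusted p = 0.00535). With all libraries kept, Ccn1 also passed in DESeq2 (adjusted p = 0.0496) and in edgeR with a replicate block (adjusted p = 0.0391). In WT the log2 fold changes were 2.25 for Ccn1 and 3.03 for Ccn2. Highest over lowest library within a group reached 4.86 for Ccn1 in Quaking KO at day 10 and 3.32 in Sam68 KO at day 0, while for Ccn2 it was at most 1.64 in any group.

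**Figure D3:**
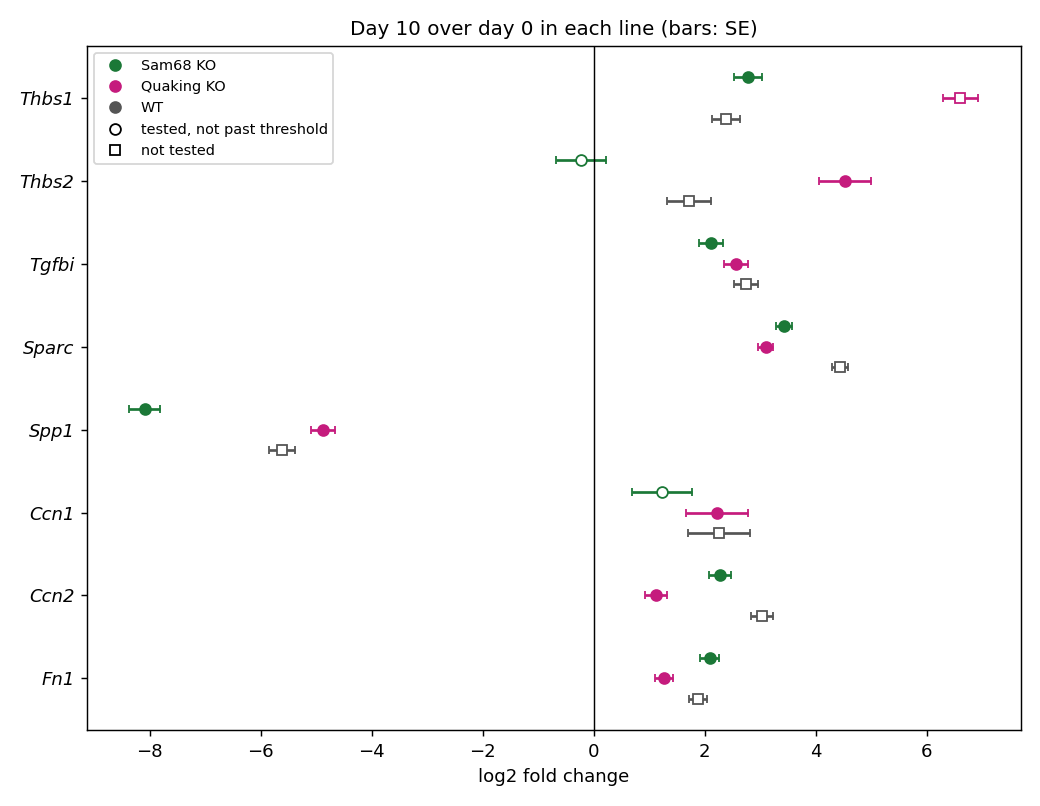
Log2 fold change of day 10 over day 0 with its SE for 8 of the genes in Sam68 KO, Quaking KO and WT; filled points passed an adjusted p of 0.05, open circles did not, and squares were not tested, while Postn and Tnc are left out because their day 0 counts were at or near 0. Spp1 is the gene lower at day 10 in all 3 lines (-8.09, -4.89 and -5.61), and Thbs2 lies near 0 in Sam68 KO (-0.23) and at 4.52 in Quaking KO.

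Thbs1 in Sam68 KO averaged 192 ± 29.8 CPM at day 10 and 28.2 ± 9.43 CPM at day 0 (log2 fold change 2.77 with an SE of 0.25, edgeR adjusted p = 2.22e-08). In Quaking KO its mean was 578 ± 27.8 CPM at day 10 and 5.716 ± 1.4998 CPM at day 0, a ratio of 101 that is given without a test. In order of level, Thbs1 was highest in Quaking KO at day 10, followed by WT and Sam68 KO at day 10, then WT and Sam68 KO at day 0, with Quaking KO at day 0 lowest. WT and Sam68 KO overlapped on each day, and the other neighbours in that order did not. Thbs2 rose in Quaking KO (24.9 ± 1.68 CPM at day 10 and 0.918 ± 0.816 CPM at day 0, log2 fold change 4.52 with an SE of 0.47, edgeR adjusted p = 8.88e-09). In Sam68 KO it did not pass (log2 fold change -0.23 with an SE of 0.45, edgeR adjusted p = 0.721), at 25 counts over the day 10 libraries and 56 over those of day 0.

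Spp1 fell over the 10 days. In Sam68 KO it averaged 0.696 ± 0.609 CPM at day 10 and 269 ± 26.0 CPM at day 0 (log2 fold change -8.09 with an SE of 0.28, edgeR adjusted p = 3.01e-17). In Quaking KO it averaged 7.23 ± 0.458 CPM at day 10 and 213 ± 20.6 CPM at day 0 (log2 fold change -4.89 with an SE of 0.22, edgeR adjusted p = 1.83e-15). The WT means were 6.28 ± 2.99 CPM at day 10 and 241 ± 22.9 CPM at day 0.

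Whether the day effect differed between the knockouts was tested as an interaction of Sam68 KO minus Quaking KO, in which 4 of 9 members were called, 2 in each direction, where 4.65% of all genes were called higher and 6.67% lower, 11.3% in all. Thbs2 and Spp1 had the lower day effect in Sam68 KO (-4.75, SE 0.66, edgeR adjusted p = 2.84e-05, and -3.20, SE 0.38, edgeR adjusted p = 3.43e-06, on the log2 scale). Ccn2 and Fn1 had the higher one (1.15, SE 0.27, edgeR adjusted p = 0.00758, and 0.82, SE 0.23, edgeR adjusted p = 0.0208). At day 0 the Sam68 KO libraries lay in pool 2 and those of Quaking KO in pool 1. Any difference between those pools is therefore part of these values. The Fn1 call was lost without Sam68 KO replicate 1 or 2 of day 10 (0.0801 and 0.0550) or 1 or 3 of day 0 (0.0520 and 0.0601), without Quaking KO replicate 1 of day 10 (0.0649) or 3 of day 0 (0.0602), and with no filter on low counts (0.0530).

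The days lay in different pools within every line. An additive model of line, day and pool, which gives 1 day effect for all lines and takes each line's difference as equal on both days, called 4 of 8 tested members higher and 2 lower at day 10, beside 40.7% of all genes in either direction. Sparc (4.77), Ccn2 (4.18), Fn1 (2.69) and Tgfbi (2.31) were the higher ones on the log2 scale and Spp1 (-8.81) and Thbs2 (-3.04) the lower ones. The same model without pool called 7 of 8 members higher and 1 lower. The share of all genes it called was not counted, so these counts cannot be set against the 40.7%. Thbs2 was higher there, by 1.92 (SE 0.49, edgeR adjusted p = 0.00162), and the untested value of Thbs1 was -1.45 with pool and 3.61 without. The model with pool has as many terms as there are groups. Pool and a day effect that differs between lines therefore cannot be told apart in it. By line, the log2 fold changes of Thbs2 were -0.23 in Sam68 KO, 4.52 in Quaking KO and 1.72 in WT. Those of Thbs1 were 2.77, 6.60 and 2.38 in the same order of lines. Tnc (6.70, edgeR adjusted p = 0.0592) and Ccn1 (1.26, edgeR adjusted p = 0.314) did not pass with pool in the model and passed without it.

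In stem cells, before differentiation, few members passed the tests between Sam68 KO and the other lines. Between Sam68 KO and WT 1 of 8 tested members was called, Sparc, which was higher, where 0.620% of all genes were called higher and 0.642% lower. Sparc measured 384, 486 and 470.3 CPM in Sam68 KO and 292, 265 and 264 CPM in WT at day 0, with no overlap. Sam68 KO exceeded WT by 0.71 on the log2 scale (SE 0.13, edgeR adjusted p = 0.00305), a call that was lost with no filter on low counts (0.0692). Against Quaking KO, Sam68 KO was higher for 2 of 9 tested members, Sparc and Ccn2, where 2.55% of all genes were called higher and 3.31% in either direction. Sparc differed by 0.79 on the log2 scale (SE 0.13, edgeR adjusted p = 0.000438), with 242, 294 and 238 CPM in Quaking KO. Both Sparc calls set the same Sam68 KO libraries, of pool 2, against libraries of pool 1. The second is therefore not a repeat of the first. Ccn2 measured 173, 129 and 120.4 CPM in Sam68 KO and 64.4, 63.7 and 76.8 CPM in Quaking KO (log2 fold change 1.04 with an SE of 0.19, edgeR adjusted p = 0.00270). Thbs1, not tested here, had 602 counts over the Sam68 KO libraries and 50 over those of Quaking KO (log2 fold change 2.24, SE 0.30). These Quaking KO libraries are among those that singled Thbs1 out, so its difference here is a description. Fn1 did not pass in either comparison (log2 fold changes -0.35 against WT and -0.39 against Quaking KO, edgeR adjusted p = 0.475 and 0.223). It passed in fits of the compared groups alone (0.0447 and 0.00606) and, against Quaking KO, without the 3 dominated libraries (0.0380).

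In Quaking KO and WT stem cells, which share pool 1, Thbs1 had 21, 7 and 22 counts in Quaking KO and 425, 226 and 413 counts in WT, or 6.26, 4.02 and 6.86 CPM against 61.7, 31.6 and 32.1 CPM. These are the values for which Thbs1 was chosen. Among the other members, Tnc had 1 count over the Quaking KO libraries and 33 over those of WT. The log2 differences of Quaking KO from WT were 0.39 for Tgfbi and within 0.1 of 0 for Sparc, Ccn1 and Fn1, with -0.18 for Spp1, -0.48 for Ccn2 and -0.88 for Thbs2. The median over members, Thbs1 included, was -0.13, beside -0.09 for all genes. Thbs1 therefore measured below WT in Quaking KO at day 0 (log2 fold change -2.81) and above it at day 10 (1.41). The difference between these 2 values was not tested, since the first one singled the gene out.

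**Figure D4:**
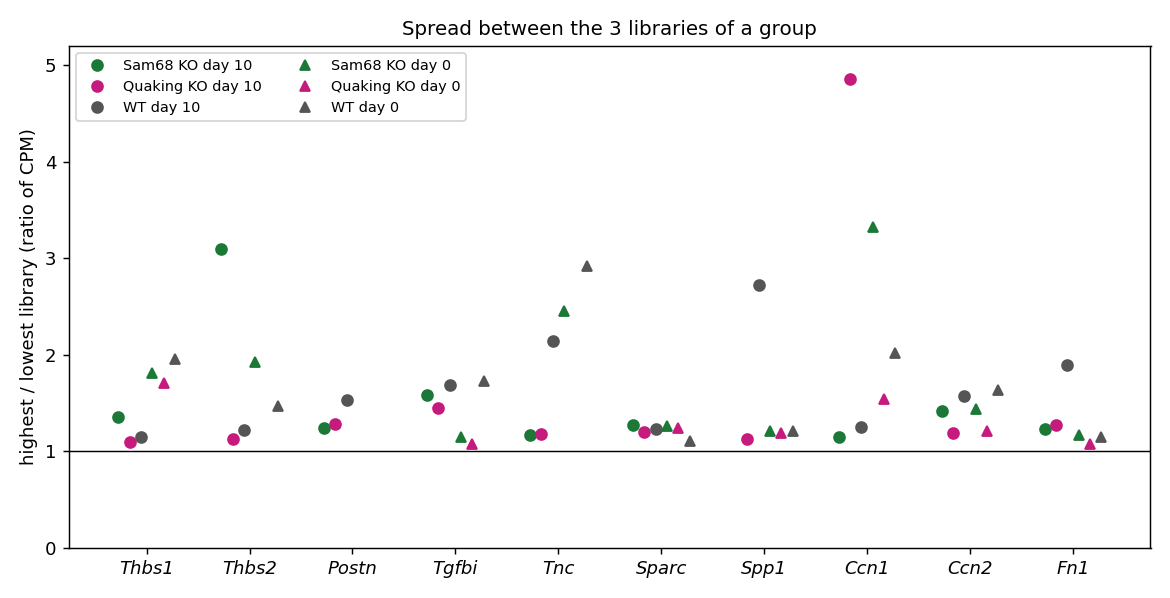
Ratio of the highest to the lowest library within each group of 3, by gene, with circles for day 10 and triangles for day 0; groups with a library at 0 are left out. Ccn1 has the widest spread, 4.86 in Quaking KO at day 10 and 3.32 in Sam68 KO at day 0, and Sparc reaches at most 1.27 in any of the 6 groups.

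The features whose log2 CPM followed Thbs1 and Postn most closely over the 18 libraries were found among all genes tested, and the files give them no names. For Thbs1 they were ENSMUSG00000023039.16 (Pearson's r = 0.985) and ENSMUSG00000062312.5 (0.968), and for Postn ENSMUSG00000038624.13 (0.998) and ENSMUSG00000026295.12 (0.996). Among the members, Tnc was the closest to both, at 0.91 for Thbs1 and 0.99 for Postn. The libraries form separate clusters by day, so these values largely describe the step between days and are given without a test. Within the 9 libraries of day 10, r was -0.72 between Thbs1 and Tnc and 0.84 between Postn and Tnc. Thbs1 also ran opposite to Postn (-0.89), Sparc (-0.92) and Ccn2 (-0.95) over those libraries. By ranks (Spearman's rho) the values with Thbs1 were nearer 0: -0.33 for Tnc, -0.50 for Postn, -0.53 for Sparc and -0.58 for Ccn2. The Quaking KO libraries lay apart from both other lines for Thbs1, Postn, Sparc and Ccn2. Their r values therefore largely describe that step between lines. Within the 9 libraries of day 0, r between Thbs1 and Tnc was 0.87. Tnc had at most 13 counts in any library of that day, and those libraries include the ones that singled Thbs1 out.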

How the data were processed

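Ribosome-protected fragments were profiled in 18 libraries, 1 file each. The deposited values are raw counts per gene, whole numbers for 51826 versioned Ensembl IDs. The submitters' processing notes name bcl2fastq 2.17.1.14, Bowtie2, STAR 2.5.3a and the builds mm10 and GRCm38; the counting program, annotation release and strand setting were not given in the sources used here, so reads of overlapping or antisense genes cannot be told apart. Groups, replicates and pools came from the labels. Biological triplicates are the series' own words, and p-values measure the spread between these libraries.

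Counts were fitted with edgeR 4.0.16 (R 4.3.3, quasi-likelihood, robust, TMM, default filter by group) in 1 model of 6 group means, two-sided, with p adjusted over 13701 genes and calls at 0.05; the script was tested on simulated data. SEs are the log2 fold change over the square root of the F statistic. Floors are 3 counts per library and intervals 95% exact binomial; both cover counting error only. Replicates of a group differed by at least 4.80 in chi-square per degree of freedom, so each library counted as 1. Alternatives tried were DESeq2 1.42.0, scaling by RLE or upper quartile, no filter, the compared groups alone, a replicate block, thinning to 988210 counts, leaving out each library, and leaving out the 3 day 10 libraries with over 40% of counts in 10 features.

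The members, lists and alternatives were chosen with earlier results of these data known. All 10 members are named, each tested only in comparisons sharing no library with the one that singled it out. The 4 lists of pathway genes and the cell type markers were fixed by symbol and could not be used, since no table pairs symbols with these IDs; for the same reason 2 IDs are given where annotated genes were planned. Protein motifs were not searched, as no protein table was used here.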

Additional observations from a re-analysis of the deposited data

Results flagged for a closer look

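Some members were set apart because their change from day 0 to day 10 differed between the Sam68 KO and Quaking KO lines by a test of that difference itself. The day 0 libraries of those lines lay in different pools, so the test cannot tell pool from line at day 0. On the log2 scale, Sam68 KO minus Quaking KO, the differences were -4.75 for Thbs2, -3.20 for Spp1, 1.15 for Ccn2 and 0.82 for Fn1 (edgeR adjusted p = 2.84e-05, 3.43e-06, 0.00758 and 0.0208). Thbs2 had 25 and 9 counts in the lower group of each line and Spp1 had 11 counts over the Sam68 KO day 10 libraries, 2 of which were dominated by few features. All 4 calls held without the 3 dominated libraries. The Fn1 call was lost in 7 of 20 alternatives.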

How the results depend on the processing

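Over tests of single members under the alternatives, 1039 stayed on their side of the threshold, 29 lost a call and 11 gained one. In 1 a call turned its direction, Thbs2 in the day effect over all lines, at -3.04 with pool in the model and 1.92 without. Uncalled members whose change crossed 0 are among the 1039. The model with pool cannot tell pool from a day effect that differs between lines. The count of members called between Sam68 KO and WT at day 10, 1 of 9, became 0 with the compared groups alone and with thinning, and 0 to 1 on leaving out 1 library. Between Sam68 KO and WT at day 0 the count of 1 became 0 with no filter and 2 with the compared groups alone. On leaving out 1 library it ran from 4 to 6 for Quaking KO against WT and 7 to 8 for Sam68 KO against Quaking KO at day 10, 2 to 2 for the same pair at day 0, 8 to 9 and 9 to 9 for the day effect in Sam68 KO and Quaking KO, and 3 to 4 for the interaction. The untested medians ran from -0.24 to -0.11 for Quaking KO over WT at day 0 and from 2.37 to 2.64 for WT day 10 over day 0. Over all genes, the 24 called between Sam68 KO and WT at day 10 became 10 to 95, the 173 at day 0 became 69 to 297, and the 454 for Sam68 KO against Quaking KO at day 0 became 212 to 627. The lowest counts were 1887 in place of 3279 for Quaking KO against WT at day 10, 2026 in place of 3242 for Sam68 KO against Quaking KO at day 10, and 679 in place of 1551 for the interaction. The replicate block left 6 members called for Quaking KO against WT at day 10, beside 3068 of 13701 genes tested. It left 8 called for Sam68 KO against Quaking KO at day 10, beside 3115 genes. For the day effect in Sam68 KO it called 9 in place of 8, beside 8847 genes, and Ccn1 passed (edgeR adjusted p = 0.0391). Replicate numbers were not treated as pairs in the main fit: of 45 same-numbered pairs, 6 had deviations correlated above 0.1 (range -0.19 to 0.44). The largest values, 0.44 and 0.27, were between Sam68 KO and WT at day 10, for replicates 1 and 3. Pairs with different numbers were not computed, so these values cannot show whether the numbers pair the samples. Depth limits Thbs2 and Spp1 at day 10, whose counts in WT replicate 3 were 3 and 4. The cause of the changes was not tested.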

Other observations

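Sparc and Spp1 had the same count, 3395, in WT day 0 replicate 3, and differed in the other 17 libraries. Both are separate rows of that file, on chromosomes 11 and 5.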
